A study of Homo sapiens with 2 samples.

Results

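The zinc-finger gene clusters of human chromosome 19 were examined in ATAC-seq peak lists of RPMI-8402 and Jurkat cells. They were taken as 6 windows of the hg19 sequence, named here cluster A (11.6 to 12.6 Mb), cluster B (4.7 Mb from 19.7 Mb), cluster C (36.6 to 38.4 Mb), cluster D (44.3 to 45 Mb), cluster E (52 to 53.9 Mb) and cluster F (56.1 Mb to the chromosome end). Together they span 13.1 Mb, and the rest of the chromosome spans 46.0 Mb. A peak belonged to a cluster when its summit lay inside the window, which held for 224 of 24603 RPMI-8402 peaks and 182 of 25189 Jurkat peaks, 406 of 49792 in all. The rule used position alone and no value of peak number, width, enrichment or sharing. The members were, however, chosen with earlier results of these data known.

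Both are established human T-ALL lines, that is, lines grown from acute leukaemias whose cells are T-cell precursors. They were cultured in RPMI-1640 medium with tetracycline-free serum, and no treatment other than the transposase reaction is named. ATAC-seq uses the Tn5 transposase to insert sequencing adapters into accessible DNA, so that reads pile up at open chromatin. There was 1 library per line, so no difference between the lines carries a replicate check and none was tested. Intervals are 95% exact intervals that cover counting error only, and peaks of 1 library are not replicates. The whole-genome background that the peak caller used was 1.96 per base in RPMI-8402 and 1.59 in Jurkat, and the weakest called summits had a pileup of 10 in RPMI-8402 and 9 in Jurkat. The pileup is the number of reads or fragments that the peak caller counted over the summit base, and it is not scaled for the depth of a library, whose total is unknown here. No hg19 gene annotation was used, so neither the peaks nor the T-lineage label of the lines could be set against gene starts.

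Most zinc-finger genes of chromosome 19 encode proteins with an array of C2H2 fingers, each of which contacts a few bases of DNA, and many carry a KRAB domain at the other end. The KRAB domain recruits TRIM28 (KAP1), which brings in the histone methyltransferase SETDB1 and heterochromatin protein, and many of these proteins are known to silence transposable elements. The genes arose by repeated tandem duplication, so neighbours are paralogues with similar sequences. Their bodies are known in many cell types to lie in chromatin marked by H3K9me3, while their promoters are usually short open sites. In the RefSeq gene table (GRCh38.p14), 268 of 1451 protein-coding genes on chromosome 19 (18.5%) had a symbol of this class (ZNF, ZFP, ZSCAN, ZIM, ZIK, ZKSCAN or ZBTB with a number), against 1.84% on the other chromosomes. Of these, 213 stood in 18 runs of at least 5 consecutive protein-coding neighbours. The longest runs were ZNF737 to ZNF681 (27 genes), ZNF627 to ZNF791 (24), ZNF565 to ZNF793 (24), ZNF772 to ZNF256 (23) and ZNF283 to ZNF180 (20). Coordinates were not converted between builds, so the runs were not placed on the windows, although ZNF737 to ZNF681 are known to lie in the short-arm band next to the centromere.

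Promoters of these genes are shown because gene starts are usual places of open chromatin and because those of the longest run resemble one another more than those of the other long runs do. They come from RefSeq (GRCh38.p14, chromosome 19), run 5′ to 3′ from upstream of the gene start to just past it, and were matched by gene for 232 of the 268 genes. Capitals mark GGGCGG (the GC box that SP factors bind), CCAATCAG (a form of the CCAAT box that NF-Y binds) and CCGGAAGT (a form of the ETS site), on either strand. ZNF737 and ZNF626 (minus strand) open the run ZNF737 to ZNF681, ZNF627 (plus strand) opens the run ZNF627 to ZNF791, and ZNF419 (plus strand) is the first gene of the run ZNF772 to ZNF256 whose promoter holds the ETS letters.
ZNF737: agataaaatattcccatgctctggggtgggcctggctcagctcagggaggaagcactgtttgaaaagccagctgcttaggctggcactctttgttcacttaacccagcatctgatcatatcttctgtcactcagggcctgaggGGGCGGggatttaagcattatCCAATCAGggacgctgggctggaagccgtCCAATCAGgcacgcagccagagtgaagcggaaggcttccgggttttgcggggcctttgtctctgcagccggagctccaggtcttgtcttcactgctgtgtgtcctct
ZNF626: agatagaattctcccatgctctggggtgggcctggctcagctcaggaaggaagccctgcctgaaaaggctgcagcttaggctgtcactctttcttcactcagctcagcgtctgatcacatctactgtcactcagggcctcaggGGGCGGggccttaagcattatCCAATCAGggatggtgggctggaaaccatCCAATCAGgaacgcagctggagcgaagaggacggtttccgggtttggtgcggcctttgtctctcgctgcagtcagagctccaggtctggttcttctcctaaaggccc
ZNF627: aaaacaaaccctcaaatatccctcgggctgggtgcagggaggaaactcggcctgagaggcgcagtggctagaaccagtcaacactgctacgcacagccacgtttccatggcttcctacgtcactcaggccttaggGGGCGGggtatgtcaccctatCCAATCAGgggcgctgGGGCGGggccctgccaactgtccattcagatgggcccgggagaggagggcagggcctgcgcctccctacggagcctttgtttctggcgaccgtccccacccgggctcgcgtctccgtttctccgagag
ZNF419: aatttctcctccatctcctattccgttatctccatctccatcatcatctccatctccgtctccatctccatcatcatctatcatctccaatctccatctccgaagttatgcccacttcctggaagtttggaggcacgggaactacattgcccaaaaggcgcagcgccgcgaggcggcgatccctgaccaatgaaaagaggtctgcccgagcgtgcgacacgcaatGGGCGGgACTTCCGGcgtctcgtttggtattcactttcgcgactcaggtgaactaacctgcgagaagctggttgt

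The promoters of ZNF737 and ZNF626 were 82.3% identical by edit distance, and each held a pair of marked CCAAT boxes after a GC box, at the same offsets. Identity was lower between ZNF737 and ZNF627 (57.7%) and lower again between ZNF737 and ZNF419 (48.0%). Over the 21 promoters matched in the run ZNF737 to ZNF681, the median identity of all 210 pairs was 76.3%, and 155 pairs (73.8%) were at least 70% identical. The closest pair was ZNF714 and ZNF431, at 91.0%. In the runs ZNF627 to ZNF791, ZNF565 to ZNF793, ZNF772 to ZNF256 and ZNF283 to ZNF180 the medians were 49.0%, 47.0%, 49.0% and 47.3%. Between directly neighbouring genes of the chromosome, the median was 49.3% over 158 zinc-finger pairs, of which 16.5% were at least 70% identical, and 46.7% over 758 pairs of other classes, of which 4.09% were.

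The searched letters also divided the runs. CCAATCAG was present in 21 of 21 promoters of the run ZNF737 to ZNF681 and in 21 of 23 of the run ZNF627 to ZNF791. It was present in 0 of 23, 0 of 20 and 1 of 16 promoters of the runs that start at ZNF565, ZNF772 and ZNF283. CCGGAAGT had the opposite distribution, with 0 of 21 and 0 of 23 in the first pair of runs, against 6 of 23, 15 of 20 and 5 of 16 in the others. These counts used a single promoter per gene. Over the chromosome all 293 zinc-finger promoters of 232 genes were counted, so some genes entered with several, and the promoters of the runs are among them. Of the 293, 20.8% held CCAATCAG and 17.7% held CCGGAAGT. The shares were 5.26% and 4.06% of the other protein-coding promoters of the chromosome, and 3.97% and 4.14% of all 35116 promoters in the table. GGGCGG was found in 64.5% of the zinc-finger promoters, in 66.1% of the others of the chromosome and in 45.0% of all promoters. The letters GCATGCGC, TCTCGCGAG and AAGATGGCG, forms of the NRF1, ZBTB33 and YY1 sites, were in 4.44%, 0.683% and 2.73% of the zinc-finger promoters, against 3.05%, 0.686% and 1.75% of all. Both strands were searched. CCAATCAG was chosen after the sequences were seen. A match describes letters in a window and not a bound site, and no deposited peak was assigned to these promoters.

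The zinc-finger clusters held more peaks in RPMI-8402 than in Jurkat, while the rest of the chromosome held fewer. The ratio of RPMI-8402 to Jurkat peak numbers was 1.23 in the clusters (224 over 182) and 0.886 in the rest of the chromosome (829 over 936). On the other chromosomes the ratio was 0.978. The largest difference was in cluster B, with 49 RPMI-8402 and 28 Jurkat peaks (ratio 1.75). Cluster E followed with 36 and 26 peaks (1.38), and cluster D had 9 and 6 (1.5). Clusters A, C and F were nearly even, with 27 and 26, 30 and 28, and 73 and 68 peaks. In the parts of the chromosome within 1 Mb of the windows, the ratio was 0.868 (210 and 242 peaks), below 1 as in the rest of the chromosome.

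Per unit of length, RPMI-8402 had 17.1 peaks per Mb in the clusters (14.9 to 19.4) and 18.0 in the rest of the chromosome (16.8 to 19.3). Jurkat had 13.9 peaks per Mb in the clusters (11.9 to 16.0) and 20.3 in the rest (19.1 to 21.7). The rest includes a nearly empty stretch that starts at the upper bound of cluster B. Leaving it out took the rest from 829 to 828 RPMI-8402 peaks and from 936 to 935 Jurkat peaks. The rest then had 19.4 peaks per Mb in RPMI-8402 and 21.9 in Jurkat. The ratio of clusters to rest went from 0.947 to 0.880 in RPMI-8402 and from 0.681 to 0.633 in Jurkat. Cluster B was the sparsest in both lines, with 10.4 peaks per Mb in RPMI-8402 and 5.96 in Jurkat. Cluster A was the densest, with 27.0 and 26.0. The longest stretch without a peak in either line ran for 581 kb in cluster B, from 22235726 to 22816957, and the next for 546 kb in cluster F. The windows are bounded by round positions: in the 100 kb inside their bounds lay 25 RPMI-8402 peaks, of which 0 lacked a partner, and in the 100 kb outside lay 19, of which 5 did. For Jurkat these were 30 peaks with 5 unpartnered, and 21 with 7.

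**Figure D1:**
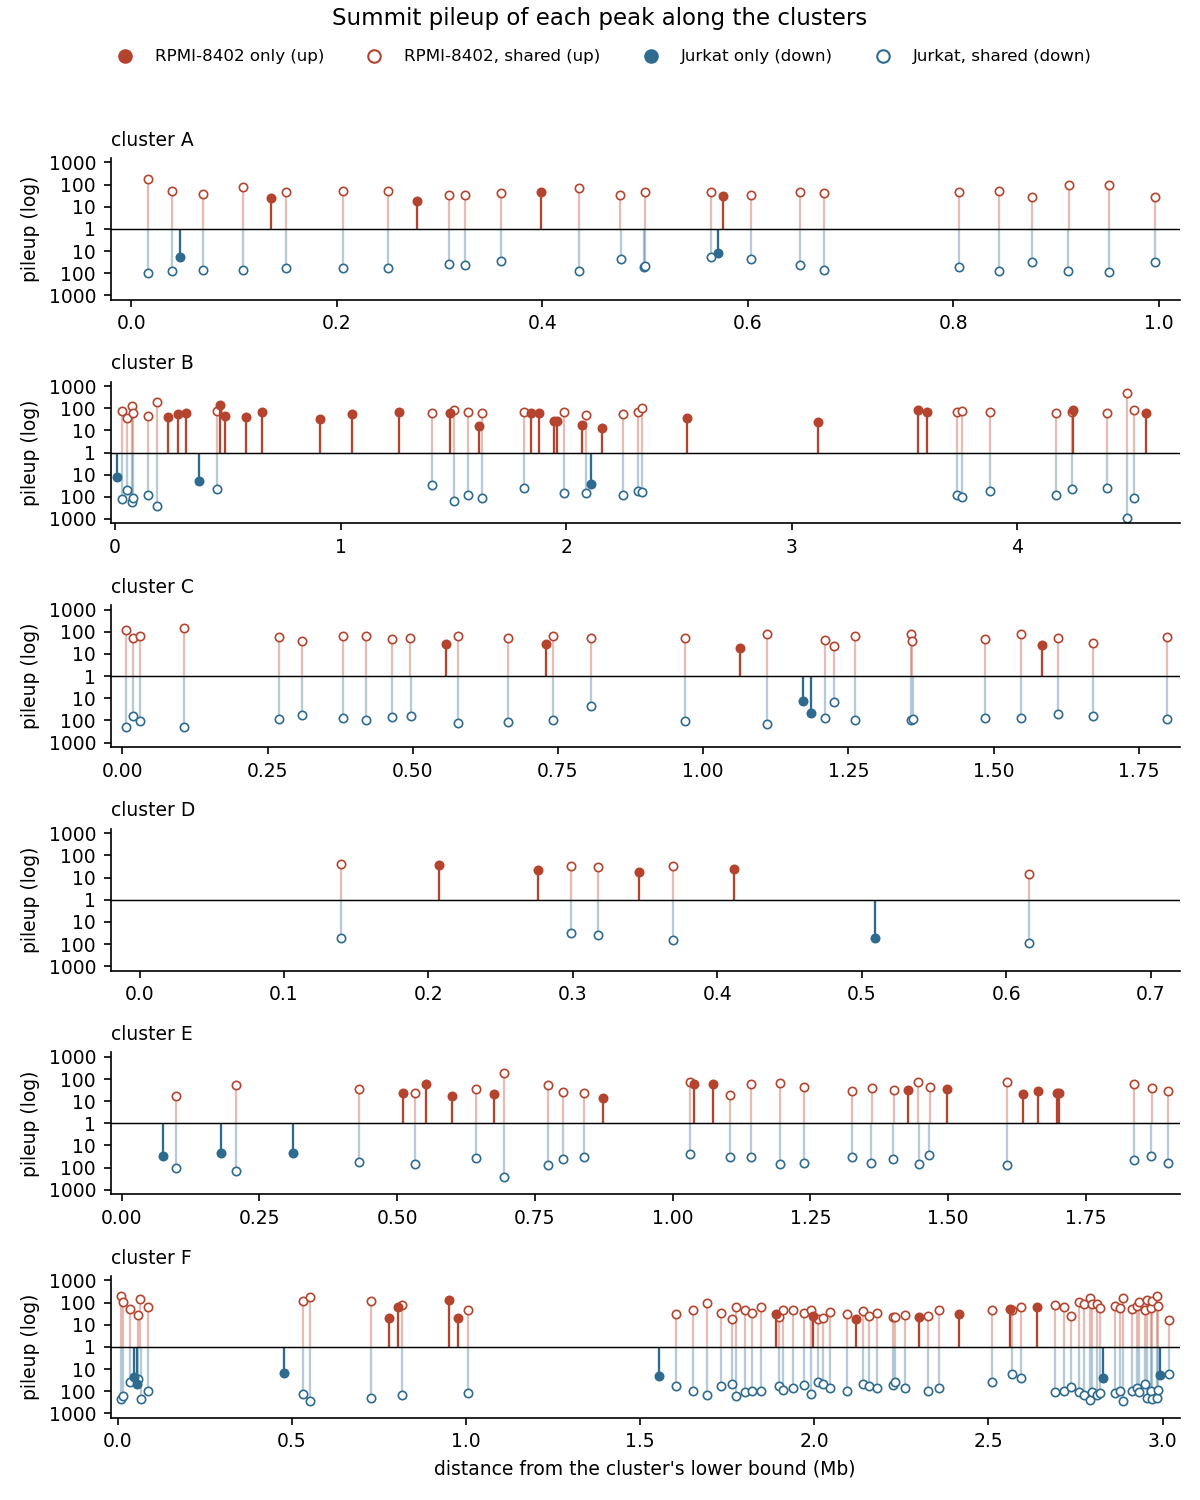
Summit pileup of each peak (log scale) against the distance from the lower bound of its cluster (Mb), with RPMI-8402 drawn upwards and Jurkat downwards; filled points have no overlapping peak in the other line and open points do. Filled RPMI-8402 points are frequent in cluster B, where 24 of 49 peaks are unpartnered against 3 of 28 in Jurkat, and sparse in clusters A and C.

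Peaks of the lines were called shared when they overlapped by at least 1 bp. Of the RPMI-8402 cluster peaks, 60 had no partner in Jurkat, a share of 26.8% (21.1 to 33.1%), against 31.9% of RPMI-8402 peaks over the genome. Of the Jurkat cluster peaks, 17 had no partner in RPMI-8402, a share of 9.34% (5.54 to 14.5%), against 32.6% of Jurkat peaks over the genome. In the rest of chromosome 19 the order of the lines was the reverse, with 16.0% of RPMI-8402 peaks (13.6 to 18.7%) and 24.7% of Jurkat peaks (21.9 to 27.6%) unpartnered. The intervals of the clusters and of the rest did not overlap in either line, with the RPMI-8402 share larger in the clusters and the Jurkat share smaller. The genome value lay inside the interval of the RPMI-8402 cluster share and above that of Jurkat. The gap between the lines over all clusters ended when the lists were cut to their 10000 strongest peaks each, with 72.7% of RPMI-8402 and 74.4% of Jurkat cluster peaks then shared. It remained when those peaks were set against the whole other list, with 81.1% and 98.4% shared, a setting chosen after seeing the data.

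Cluster B carried the largest unpartnered share of the RPMI-8402 list, 24 of 49 peaks or 49.0% (34.4 to 63.7%), which was 40% of all unpartnered RPMI-8402 peaks in the clusters. In Jurkat 3 of its 28 peaks were unpartnered, 10.7% (2.27 to 28.2%). Cluster D had 4 of 9 RPMI-8402 peaks (44.4%) and 1 of 6 Jurkat peaks (16.7%) without a partner, with intervals too wide to order. Cluster E had 13 of 36 (36.1%, 20.8 to 53.8%) and 3 of 26 (11.5%, 2.45 to 30.2%). In cluster A the shares were 14.8% in RPMI-8402 and 7.69% in Jurkat, in cluster C 13.3% and 7.14%, and in cluster F 15.1% and 8.82%. The RPMI-8402 share was the higher in each of the 6 clusters, but the intervals of the lines were apart in cluster B alone. Without cluster B, 36 of 175 RPMI-8402 cluster peaks (20.6%, 14.8 to 27.3%) and 14 of 154 Jurkat cluster peaks (9.09%, 5.06 to 14.8%) lacked a partner. The first of these intervals overlaps that of the rest of the chromosome.

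**Figure D2:**
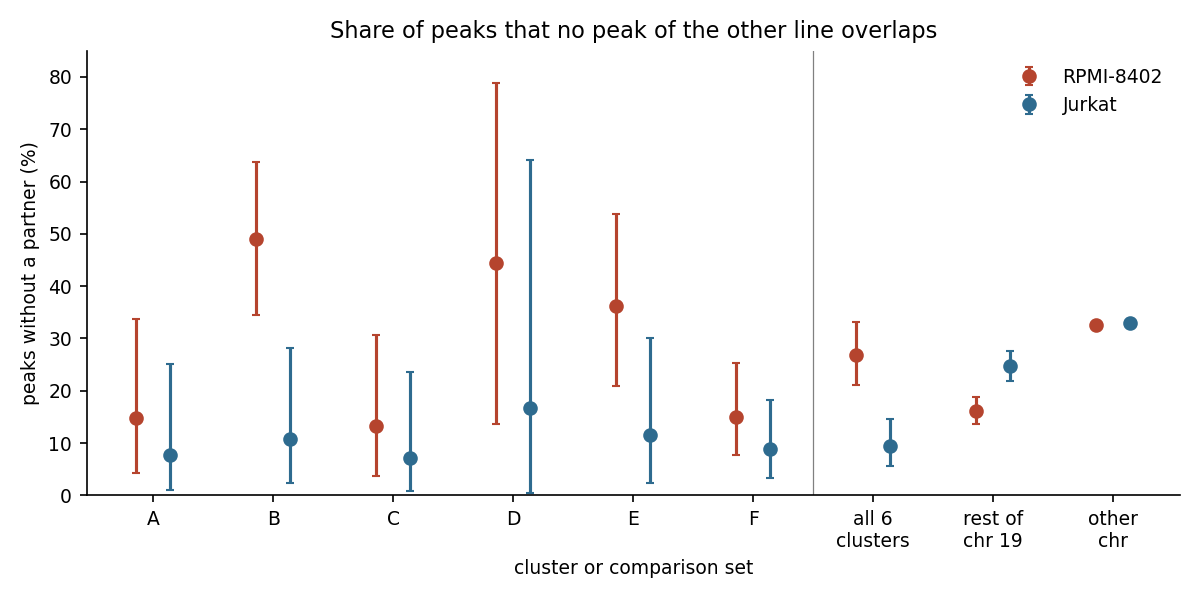
Share of peaks (%) that no peak of the other line overlaps, for clusters A to F, the 6 clusters together, the rest of chromosome 19 and the other chromosomes; points are the share and bars its 95% exact binomial interval. RPMI-8402 lies above Jurkat in every cluster (49.0% against 10.7% in cluster B), and below it in the rest of the chromosome (16.0% against 24.7%).

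The unpartnered RPMI-8402 peaks of cluster B were mostly not weak calls. Their pileups ran from 13 through a median of 56 to 137, and 16 of 24 reached 40 or more. The unpartnered RPMI-8402 peaks of the rest of the chromosome had a median pileup of 25, and 23 of 133 reached 40. The 3 unpartnered Jurkat peaks of cluster B had pileups of 13, 19 and 26. Among RPMI-8402 peaks with a pileup of at least 40, 40% lacked a Jurkat partner in cluster B (16 of 40, 24.9 to 56.7%), 7.84% in the other clusters (8 of 102, 3.45 to 14.9%), 4.26% in the rest of the chromosome (23 of 540, 2.72 to 6.32%) and 8.77% on the other chromosomes. At the same pileup cutoff, 0 of 23 Jurkat peaks of cluster B lacked a partner, an interval of up to 14.8%, against 5.33% in the rest of the chromosome. The cutoff is not scaled for depth, so it need not mean the same strength in both lines. Within RPMI-8402 the interval of cluster B at this cutoff lay above those of the other clusters and of the rest. The intervals of the other clusters and of the rest overlapped. How reads that match several paralogues were treated is not known, and their part in this difference was not tested.

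**Figure D3:**
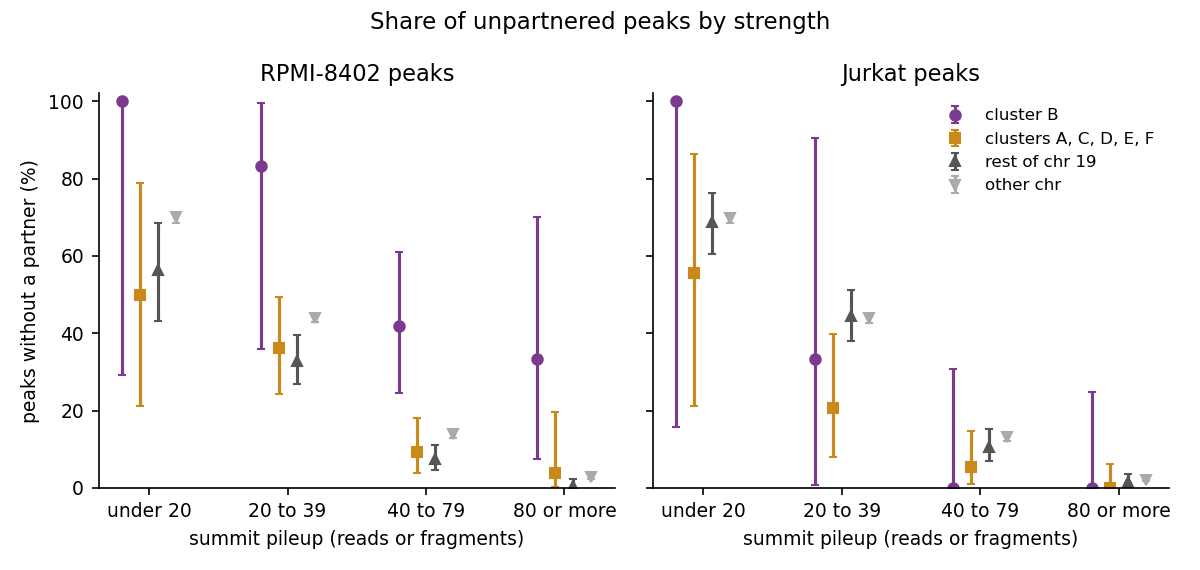
Share of peaks without a partner (%) by class of summit pileup (reads or fragments), for RPMI-8402 and Jurkat peaks; symbols are cluster B, the other clusters, the rest of chromosome 19 and the other chromosomes, and bars are 95% exact binomial intervals. From a pileup of 40 to 79, 41.9% of RPMI-8402 peaks of cluster B lack a partner, against 7.38% in the rest of the chromosome, while the Jurkat share in cluster B is 0 of 10.

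Where both lines had a peak in cluster B, RPMI-8402 was not the higher. The 25 pairs of 1 peak with 1 peak had a median pileup of 67 in RPMI-8402 and 80 in Jurkat, and their log2 pileup ratio (RPMI-8402 over Jurkat, with the median of all 16494 genome pairs set to 0) had a median of −0.26 (order-statistic interval −0.37 to 0.42). The local background that the peak caller used at these pairs had a median log2 ratio of −0.11. This background ratio was not centred, and its median was 0.07 in the rest of the chromosome and 0.10 on the other chromosomes. Within 1 Mb of cluster B, partners were missing for 4 of 20 RPMI-8402 peaks and for 7 of 23 Jurkat peaks. The nearly empty stretch above cluster B covers the 1 Mb on its upper side. Nearly all of these peaks thus lay on the lower side, and they do not describe both sides of the cluster.

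Many of the unpartnered RPMI-8402 peaks of cluster B followed one another, while others stood singly. With overlapping peaks of the lines merged, 24 of the 52 regions of cluster B (46.2%) were called in RPMI-8402 alone. At such a share runs can form without any grouping, which was not tested. The longest run in any cluster held 7 consecutive regions called in RPMI-8402 and 0 in Jurkat, from 20162707 to 20959551, a span of 797 kb. Its peaks had pileups of 137, 44, 41, 64, 34, 56 and 64 in order along the chromosome and widths of 601 to 915 bp. A run of 4 such regions spanned 1065 kb from 22235015 to 23300256, with pileups of 23 to 81, and another spanned 116 kb from 21541647 to 21657845, with pileups of 26 to 59. Cluster E held a run of 4 from 53635742 to 53700727, whose pileups of 21 to 29 were lower. Jurkat had no run above 2 regions in the clusters, one in cluster C (37772045 to 37785651) and one in cluster F (56146280 to 56155069). Only 17 of the 241 merged regions of the clusters (7.05%) were called in Jurkat alone, which leaves little room for longer runs.

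By 1-Mb windows of cluster B, unpartnered RPMI-8402 peaks numbered 8 of 15, 8 of 14, 3 of 7, 3 of 6 and 2 of 7 from the lower bound upwards, the last window being shorter. The unpartnered Jurkat peaks numbered 2 of 9, 0 of 6, 1 of 5, 0 of 3 and 0 of 5. Unpartnered RPMI-8402 peaks were thus present in all 5 windows. In cluster E, unpartnered RPMI-8402 peaks numbered 5 of 14 below 53 Mb and 8 of 22 above it, so the shares were similar. Unpartnered Jurkat peaks numbered 3 of 12 below 53 Mb and 0 of 14 above it.

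The strongest unpartnered RPMI-8402 peaks, ranked by the authors' −log10 q, came from clusters B and F. The first lay in cluster F at positions 57049680 to 57050697, where the pileup was 129 (108 to 153), the enrichment 15.7-fold and the nearest Jurkat peak 55785 bp away. The second lay in cluster B at 20162707 to 20163431, where the pileup was 137 (115 to 162) and the enrichment 13.2-fold, 12295 bp from the nearest Jurkat peak. The others were in cluster B at 23299671 to 23300256 (pileup 70) and 20348763 to 20349416 (pileup 64), and in cluster F at 56904603 to 56905199 (pileup 62). Their nearest Jurkat peaks lay 132482, 198351 and 9943 bp away.

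The 5 strongest unpartnered Jurkat peaks, ranked in the same way, had lower pileups, which are not scaled for depth. Their enrichments ran from 5.04-fold to 15.1-fold, against 13.2-fold to 15.7-fold for the 5 of RPMI-8402. Cluster D held the first, at 44808691 to 44809280, where the pileup was 56 (42.3 to 72.7) and the enrichment 15.1-fold, 96774 bp from the nearest RPMI-8402 peak. Cluster C held the second, at 37784329 to 37785651, which was 1323 bp wide and reached a pileup of 46 (33.7 to 61.4). The next, in cluster E at 52074241 to 52074571 and in cluster F at 58928314 to 58929035 and 56154119 to 56155069, had pileups of 30, 26 and 47. Of all unpartnered peaks in the clusters, 53 of 60 in RPMI-8402 and 11 of 17 in Jurkat lay over 10 kb from the nearest peak of the other line. In the rest of the chromosome these were 72 of 133 and 146 of 231. The distances were not adjusted for the density of the other list. Jurkat had 13.9 peaks per Mb in the clusters and 20.3 in the rest, and RPMI-8402 had 17.1 and 18.0.

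Cluster peaks had higher fold enrichments than the other peaks of the chromosome, and taken over all clusters a lower median local background. The enrichment is the authors' own value, the summit pileup plus 1 over the local background plus 1, and is described within each list. In RPMI-8402 its median was 9.34 in the clusters (quartiles 7.55 to 11.3) and 7.48 in the rest of the chromosome (5.52 to 9.71). In Jurkat it was 11.9 in the clusters (9.27 to 14.2) and 8.48 in the rest (5.97 to 11.9). The median pileups went the other way in RPMI-8402, with 49 in the clusters and 53 in the rest, while Jurkat had 68 and 54. The median local background was 3.94 per base in the clusters and 5.95 in the rest for RPMI-8402, and 4.50 and 5.20 for Jurkat. Jurkat clusters C and F went the other way, with medians of 5.96 and 6.08, above the rest of the chromosome. Cluster B had the highest median enrichment in both lists, 12.3 in RPMI-8402 and 14.2 in Jurkat.

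The quartiles of width were closer together in the clusters. In RPMI-8402 the median width was 735 bp in the clusters (quartiles 614 to 906 bp) and 754 bp in the rest (558 to 953 bp). In Jurkat it was 752 bp in the clusters (623 to 914 bp) and 686 bp in the rest (458 to 890 bp). The narrowest medians were those of cluster D, 624 bp in RPMI-8402 and 630 bp in Jurkat, from 9 and 6 peaks, and then of cluster B, 665 and 699 bp. The widest RPMI-8402 peaks lay in cluster F at 56165127 to 56167026 (1900 bp), cluster C at 36630418 to 36632129 (1712 bp) and cluster F at 56110371 to 56111934 (1564 bp). The widest Jurkat peaks lay in cluster F at 56165108 to 56166984 (1877 bp) and 58919287 to 58920799 (1513 bp), and in cluster A at 12250829 to 12252291 (1463 bp). All of these were shared.

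**Figure D4:**
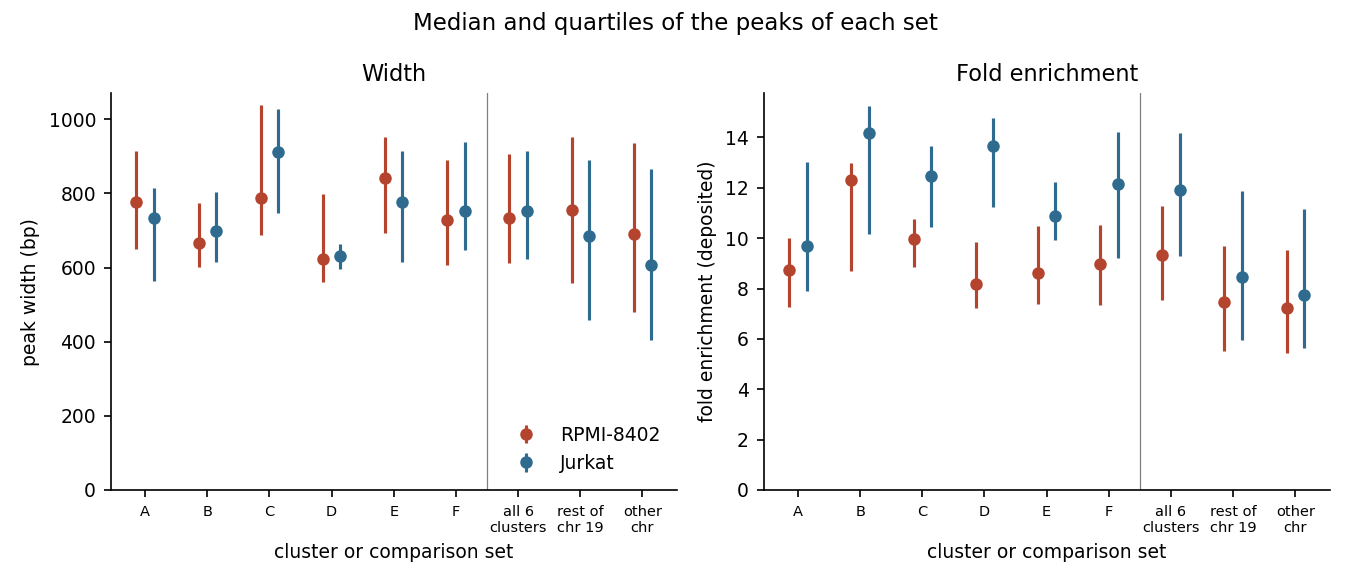
Median (point) and quartiles (line) of peak width (bp) and of the deposited fold enrichment, for clusters A to F, the 6 clusters together, the rest of chromosome 19 and the other chromosomes, in RPMI-8402 and Jurkat. Enrichment is highest in cluster B (12.3 in RPMI-8402 and 14.2 in Jurkat) and lower in the rest of the chromosome (7.48 and 8.48).

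Cluster peaks lay farther apart than those of the rest. The median distance to the nearest peak of the same line, on either side, was 23649.5 bp in the clusters and 13000 bp in the rest for RPMI-8402. For Jurkat it was 26753 and 12334.5 bp. A neighbour within 5 kb was present for 10.7% of RPMI-8402 cluster peaks, against 17.1% in the rest, and for 12.1% of Jurkat cluster peaks, against 20.9%. Within cluster F the median distance was shorter, 14637 bp in RPMI-8402 and 14432.5 bp in Jurkat. The longest run of shared regions, 12 between 58962587 and 59087164, lay near its upper end, and the next held 10 regions in cluster C from 36605563 to 37096789.

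The strongest pair of each cluster was taken as the one with the highest product of both enrichments. In cluster F the RPMI-8402 peak at 56651815 to 56652613 had a pileup of 175 and the Jurkat peak over it 276. In cluster C the pair at 37708708 to 37709290 had 78 in RPMI-8402 and 147 in Jurkat, a scaled ratio of RPMI-8402 to Jurkat of 0.597 (0.448 to 0.791). The pairs of clusters A (12551120 to 12552147), D (44439174 to 44439747) and E (52772691 to 52773388) had pileups of 96, 39 and 56 in RPMI-8402 and of 86, 51 and 75 in Jurkat, with intervals of the ratio that included 1. The pair of cluster B, at 24184730 to 24185058, had 463 in RPMI-8402 and 891 in Jurkat over a width of 329 and 356 bp. It was the only member above a pileup of 300 in either list and lay near the upper end of the window; without it the unpartnered share of cluster B was 50% in RPMI-8402 and 11.1% in Jurkat.

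At shared peaks the pileup in the clusters was lower in RPMI-8402 than in Jurkat. Over 163 pairs the median pileup was 53 in RPMI-8402 and 73 in Jurkat, and the centred median log2 ratio was −0.32 (−0.44 to −0.22). It was −0.27 within 1 Mb of the windows, −0.09 in the rest of the chromosome and 0.01 on the other chromosomes. Of the 163 pairs, 117 lay below 0. Scaled by the lowest background of each list instead, which moves the median of all pairs to −0.47, it was −0.80, and 61 pairs in place of 18 were at least 2-fold higher in Jurkat. On the deposited enrichment, which divides by the local background, it was −0.085, centred on that measure's own median of all pairs, −0.24. In that setting 1 pair was at least 2-fold higher in Jurkat. The enrichment medians elsewhere were −0.073 within 1 Mb of the windows, −0.069 in the rest of the chromosome and 0.005 on the other chromosomes. On this measure the clusters were thus close to the rest of the chromosome. A 2-fold difference in favour of RPMI-8402 was reached by 7 pairs (4.29%, against 9.21% of all pairs), and in favour of Jurkat by 18 pairs (11.04%, against 4.89% of all pairs).

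Cluster F had the lowest median of the 6 clusters. Its 62 pairs had a median pileup of 53 in RPMI-8402 and 98.5 in Jurkat, a centred log2 ratio of −0.57 (−0.69 to −0.49), and 13 of the 18 pairs at least 2-fold higher in Jurkat. The local background at these pairs was also lower in RPMI-8402, with a median log2 ratio of −0.45. This background ratio was not centred, and its median was 0.07 in the rest of the chromosome and 0.10 on the other chromosomes. On the deposited enrichment the centred median was −0.14. The 17 pairs within 1 Mb of cluster F had a median of −0.42, and whether the lines differ in copies of this segment was not tested. Without cluster F the median over the clusters was still below 0, at −0.21. The medians of clusters A, B, C, D and E were −0.04, −0.26, −0.35, −0.22 and −0.25, the value of cluster D resting on 5 pairs.

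**Figure D5:**
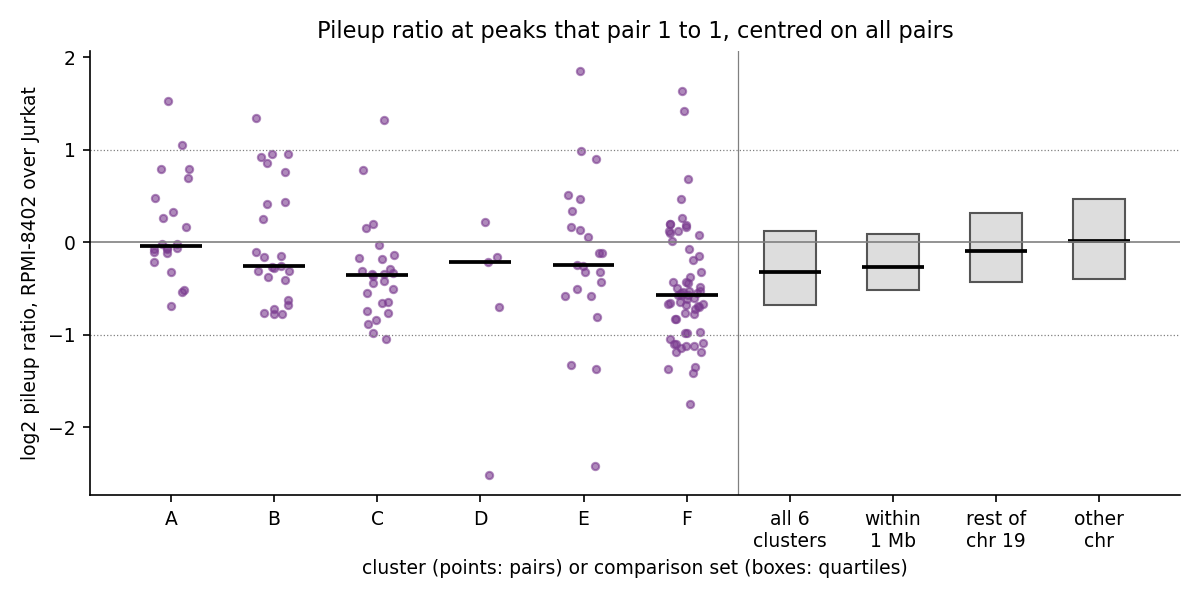
Log2 pileup ratio, RPMI-8402 over Jurkat, at peaks that pair 1 to 1, centred on all pairs of the genome; points are the pairs of clusters A to F with their median (bar), and boxes are the quartiles and median over all clusters, the rest of the chromosome within 1 Mb of a window, the whole rest of chromosome 19 and the other chromosomes. The dotted lines mark a 2-fold difference. Cluster F has the lowest median, −0.57, and cluster A lies near 0.

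The 5 pairs with the largest Jurkat excess came from clusters D, E and F. The largest Jurkat excess was in cluster D, where the summit at 44915353 to 44915689 reached 14 in RPMI-8402 and 90 in Jurkat, 5.71 times as high in Jurkat after scaling (3.24 to 10.9). In cluster E the peak at 52097477 to 52097823 had 17 in RPMI-8402 against 102 in Jurkat (5.33, 3.17 to 9.51), and the Jurkat peak there was 916 bp wide where the RPMI-8402 peak had 347 bp. The next were in cluster F at 58427576 to 58428276 (25 in RPMI-8402 and 94 in Jurkat) and 57922203 to 57922971 (34 and 102), and in cluster E at 52531303 to 52532141 (23 and 67). The largest RPMI-8402 excess was in cluster E, where the peak at 53030401 to 53031346 had 77 in RPMI-8402 and 24 in Jurkat, 3.61 times as high in RPMI-8402 after scaling (2.26 to 5.97). It was followed by peaks of cluster F at 58666133 to 58666727 (47 and 17), cluster A at 12163367 to 12163924 (46 and 18), cluster F at 58693838 to 58694962 (62 and 26) and cluster B at 21105918 to 21106690 (63 and 28).

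Summits of paired cluster peaks lay a median of 70 bp apart, and 106 of 163 pairs lay within 100 bp. The median log2 width ratio of RPMI-8402 to Jurkat was −0.01 in the clusters, against 0.05 on the other chromosomes. Across the cluster pairs Pearson's r of the log2 pileups was 0.69 and Spearman's rho 0.65, against 0.84 and 0.84 over the 687 pairs of the rest of the chromosome. These are descriptions over regions of the same pair of libraries. In clusters A, B, C, E and F the Pearson r was 0.68 (22 pairs), 0.78 (25 pairs), 0.77 (26 pairs), 0.41 (23 pairs) and 0.77 (62 pairs). The value of cluster B includes its outlying pair, with pileups of 463 and 891, and was not recomputed without it. Spearman's rho was 0.79, 0.44, 0.74, 0.21 and 0.81 in the same order, so rank agreement was weaker in clusters B and E. In cluster D, with 5 pairs, the values were −0.64 and −0.2.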

How the data were processed

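ATAC-seq libraries of RPMI-8402 and Jurkat, 1 each, were sequenced as paired-end reads, per the labels' protocols. The submitters' processing notes list MACS2 2.1.1.2016030, Bowtie2, SAMtools, Picard and the build hg19. The sources used here state no roles, parameters or read filters, including for reads that match several places. The deposited files are 1 peak list per library in the narrowPeak layout, with, per the authors' peak caller, a score (10 times the −log10 p-value), a fold enrichment ratio, −log10 p and −log10 q, and a summit offset deposited as bp from the peak start.

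Peaks on chromosomes 1 to 22, X and Y were used (24603 in RPMI-8402, 25189 in Jurkat). Summit pileup and background were solved from the fold (pileup plus 1 over background plus 1) and the Poisson p-value. The solution was a whole number, within 0.01, in 100% of peaks of each list. Pileup ratios were centred on the median log2 ratio of all 16494 pairs, −0.17. Overlaps, exact Clopper-Pearson, Poisson and conditional binomial intervals and order-statistic intervals of medians used Python 3.11.15, numpy 2.4.6, pandas 2.3.3 and scipy 1.17.1, promoter identity edlib 1.3.9.post1, and the solving and overlap steps were tested on simulated data. The members, lists and tests were chosen with earlier results of these data known. Peaks named are, per line, the 5 unpartnered ones with the highest −log10 q and the 3 widest; per cluster, the strongest pair; per direction, the 5 pairs with the largest ratio; and the longest run of unpartnered regions per line and the longest empty stretch. The runs of 4, the shared runs and the next empty stretch were named after their values were seen. Gene starts, lineage markers and motifs in peaks were not analysed, since they need hg19 annotation or sequence.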

Additional observations from a re-analysis of the deposited data

How the results depend on the processing

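Of 141 alternative values, 111 stayed within the counting interval of the reported value (for counts, within 1.5 times) and 30 moved. Cut to the 10000 strongest of each list, the clusters had 10.1 peaks per Mb in RPMI-8402 and 9.83 in Jurkat, median widths of 801 and 812 bp and median enrichments of 10.8 and 13.2, as fewer and stronger peaks were kept. The shared share of Jurkat cluster peaks then fell to 74.4%, close to the 72.7% of RPMI-8402. With these peaks set against the whole other list (chosen after seeing the data), 81.1% of RPMI-8402 and 98.4% of Jurkat cluster peaks were shared. The unpartnered share of cluster B, also recomputed after seeing the data, was between 42.1% and 50% in RPMI-8402 under the 7 alternatives run, and in Jurkat between 7.41% and 11.1%, except for 0% among the 10000 strongest against the whole list. In the rest of the chromosome the RPMI-8402 share was 8.96%, 10.2%, 1.66% and 22.8% at −log10 q of at least 10 against the whole list, among the 10000 strongest of each list, among them against the whole list and at an overlap of 50% of both peaks. The Jurkat share was 14.7%, 2.89% and 31.6% for the whole-list setting by q, the whole-list setting by rank and the 50% overlap, and 19.2% when each list was held to a −log10 q of 10 or more. Without cluster B the densities were 20.8 and 18.3 peaks per Mb in RPMI-8402 and Jurkat, and 79.4% of RPMI-8402 peaks were shared. Without cluster F the Jurkat density was 11.3 and the median log2 pileup ratio −0.21. That ratio was −0.80 when scaled by the lowest background, which puts the median of all pairs at −0.47. It was −0.085 on the deposited fold, centred on the fold's own median of all pairs, against −0.069 in the rest of the chromosome. Pairs at least 2-fold higher in RPMI-8402 numbered 3, 0 and 11 when scaled by the lowest background, on the deposited fold and centred on the rest of the chromosome. Those higher in Jurkat numbered 61 and 1 in the first and second of these settings. Where no reason is given the cause was not tested. Alternatives on gene starts were not run. No paired analysis was possible because the peak lists hold 1 library per line with no replicate numbers, and no replicate could be left out. A site near a pileup of 10 can go uncalled at these depths, so its absence from a list is not evidence of closed chromatin.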
